A study of Mus musculus with 27 samples.

Results

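Neurons of the mouse suprachiasmatic nucleus (SCN) that carry the name of arginine vasopressin (AVP) were compared with neurons that carry the name of vasoactive intestinal peptide (VIP) by small-RNA sequencing of their microRNAs. The comparison used 4 of the 27 libraries of the series, 2 of AVP neurons and 2 of VIP neurons. A miRNA was taken when its deposited value was at least 100, on a scale of 10000000 per library, in at least 2 of the 4 libraries. Of 844 miRNAs named anywhere in the series, 392 were listed in at least 1 of the 4 libraries and 247 of these met that minimum.

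The series profiled miRNAs in SCN, hypothalamus and cortex, over a circadian time course of the SCN, after a light pulse, and in 3 kinds of SCN neuron. The AVP and the VIP libraries both came from total RNA of SCN neurons of C57BL/6 mice, and the labels gave them no genotype, treatment, age or time of day. How the neurons were marked and collected, and whether the 2 libraries of a kind came from separate animals, is not given in the sources used here, so every p-value measures the spread between these libraries, which may be technical. The 2 libraries of cholecystokinin (CCK) neurons and the 2 libraries of whole SCN tissue from the regional experiment are given beside the comparison as reference levels only. The mRNAs of AVP and VIP are not measured by this assay, so the identity of the neurons rests on the labels.

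The SCN is the central circadian pacemaker of mammals. AVP neurons lie mainly in its dorsomedial shell, and VIP neurons lie mainly in its ventrolateral core, which receives the retinal input and signals to the rest of the nucleus. A miRNA is cut from a hairpin precursor, either arm of which (5p or 3p) can be loaded into Argonaute, and it recognises target mRNAs chiefly through its seed, bases 2 to 8 from its 5′ end. miRNAs that share a seed share most predicted targets, and miRNAs cut from the same primary transcript are transcribed together.

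The mature sequences of the miRNAs on which the comparison turned follow, from RefSeq on GRCm38, with the seed in capitals. The first set was higher in AVP neurons and was chosen for level and size of difference.
miR-409-5p: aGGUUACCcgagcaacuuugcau
miR-27b-3p: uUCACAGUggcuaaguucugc
miR-149-5p: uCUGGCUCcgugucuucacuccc
miR-370-3p: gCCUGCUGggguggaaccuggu
miR-298-5p: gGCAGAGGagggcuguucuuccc
miR-24-3p: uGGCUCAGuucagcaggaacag

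The next set was lower in AVP neurons. It holds the miRNA with the smallest adjusted p in this direction, the 4 members of the let-7 seed family that passed the test, and 3 others of high level in VIP neurons.
miR-204-5p: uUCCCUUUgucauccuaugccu
let-7e-5p: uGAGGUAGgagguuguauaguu
let-7f-5p: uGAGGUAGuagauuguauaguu
let-7a-5p: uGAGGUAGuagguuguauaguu
miR-98-5p: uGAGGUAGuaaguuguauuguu
miR-128-3p: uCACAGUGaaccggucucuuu
miR-329-3p: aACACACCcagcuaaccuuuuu
miR-132-3p: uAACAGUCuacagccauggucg

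The last set shows hairpins whose arms were called in opposite directions, or whose neighbour was.
miR-1981-5p: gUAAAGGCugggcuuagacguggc
miR-1981-3p: cAUCUAACccuggccuuugac
miR-344f-5p: aGUCAGUCuccuggcuggaguc
miR-344f-3p: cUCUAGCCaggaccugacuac
miR-212-5p: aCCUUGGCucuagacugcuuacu

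AVP and VIP neurons had widely different miRNA profiles. limma with Benjamini-Hochberg adjustment over all 247 miRNAs called 89 (36%) at an adjusted p under 0.05, 45 higher (18.2%) and 44 lower (17.8%) in AVP neurons, and 117 had an unadjusted p under 0.05. Both AVP libraries lay on the same side of both VIP libraries for 180 miRNAs (72.9%), above them for 101 (40.9%) and below them for 79 (32%). Every called miRNA was among those 180, and the nearest libraries of the groups were more than 2-fold apart for 66 miRNAs with AVP higher and 58 with AVP lower. In such bulk libraries, fewer cells of a kind and less RNA per cell cannot be told apart. Differences are given as AVP minus VIP on the scale log2(deposited value + 1), and levels as CPM, the usual scale of counts, which is the deposited value divided by 10, so the minimum is 10 CPM.

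The AVP libraries were shallower, with 537185 and 908476 miRNA reads, against 2812318 and 2786568 in the VIP libraries. A count of 3 reads, the limit that a count of 0 allows, equals 5.60 and 3.31 CPM in the AVP libraries and 1.07 and 1.08 CPM in the VIP libraries, for counting error only. When all 4 libraries were thinned to 537185 reads, 90 miRNAs were called, 46 higher and 44 lower. Replicates differed by a median of 1.49-fold between the AVP libraries and 1.71-fold between the VIP libraries. Across the 247 miRNAs, which are not independent, log2 values had a Pearson r of 0.791 between the AVP libraries, 0.835 between the VIP libraries, and 0.366 to 0.477 between an AVP and a VIP library.

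The balance of directions depended on the scaling. The median log2 difference over the 247 miRNAs was 0.50. Median-ratio scaling lowered differences by 0.665, and by less for miRNAs at 0 in a group, as from -14.12 to -14.45 for miR-329-3p. After it 82 were called, 27 higher and 55 lower. edgeR's quasi-likelihood test on the recovered reads called 48, 9 higher and 39 lower, and DESeq2 called 104, 40 higher and 64 lower. All 89 called miRNAs kept their sign under every alternative run, and 36 of them were also called by median-ratio scaling, edgeR and DESeq2, 9 higher and 27 lower. The number called fell to 22 without AVP replicate 1, 13 without AVP replicate 2, 42 without VIP replicate 1 and 40 without VIP replicate 2, where the single library left is assumed to vary like the other group. The calls miR-204-5p, miR-409-5p, miR-431-3p and miR-540-5p held under all 4 of these omissions, but with edgeR those of miR-431-3p and miR-540-5p were lost.

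**Figure D1:**
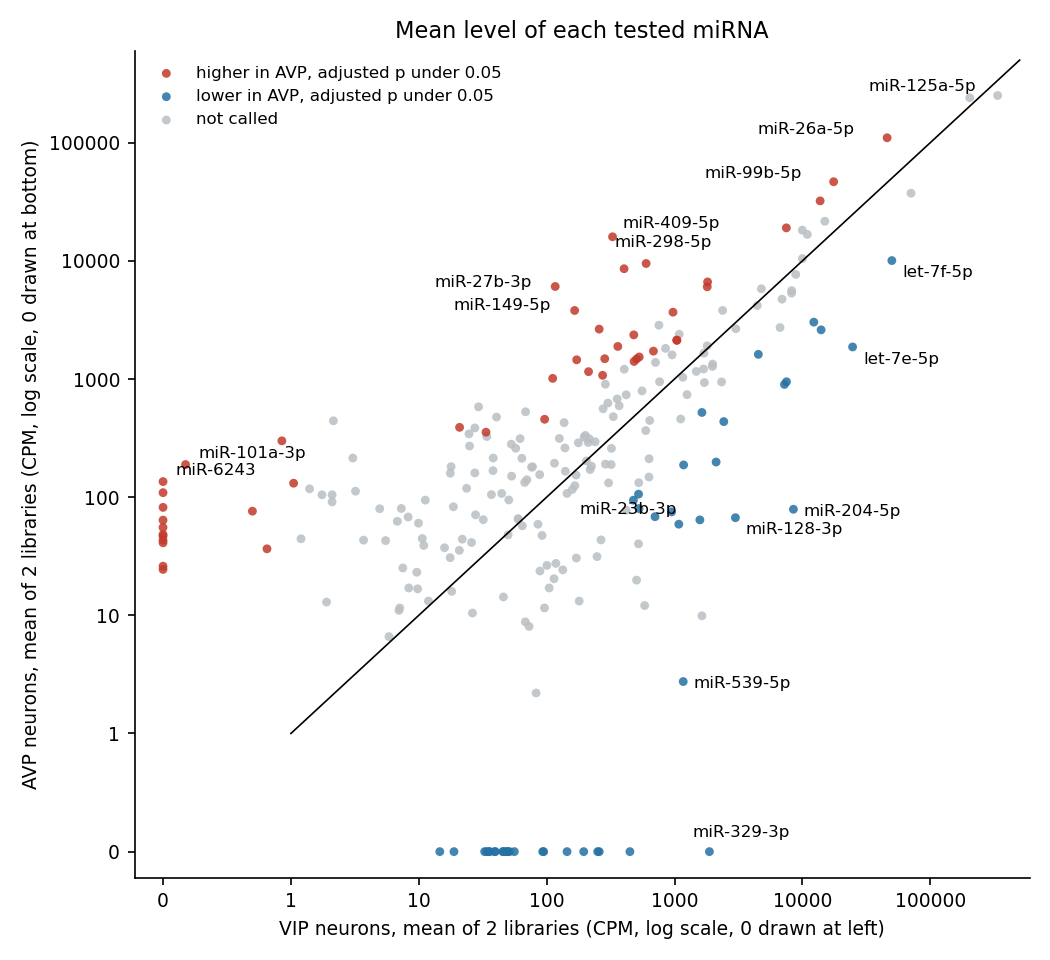
Mean level of each of the 247 tested miRNAs in AVP neurons (vertical axis) against VIP neurons (horizontal axis), in CPM on log scales, each a mean of 2 libraries; means of 0 are drawn at the axis end marked 0, and the line marks equal levels. The 45 called higher and 44 called lower in AVP neurons lie above and below the line, and 34 called miRNAs were at 0 in both libraries of the other group.

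The plot of group means holds called miRNAs at low and at high levels. Of the 89 called miRNAs, 51 were listed in all 4 libraries, 31 higher and 20 lower in AVP neurons. The minimum level itself selects for difference where a miRNA met it in 1 group only. That was so for 27 miRNAs through the AVP libraries, 16 of them called, and for 25 through the VIP libraries, 24 of them called. Of the 195 miRNAs that met it with at least 1 library of each group, 49 were called, 29 higher and 20 lower.

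Among abundant miRNAs, miR-409-5p had the smallest adjusted p with the higher level in AVP neurons. It is cut from a hairpin in an intron of the noncoding RNA gene Mirg, in the imprinted Dlk1-Dio3 region (GRCm38 chr12:109743158-109743236, plus strand). Its level was 14688 and 17274 CPM in AVP neurons, against 308 and 347 CPM in VIP neurons. The AVP libraries lay 48.8-fold above the VIP libraries by their means, and the log2 difference was 5.61 ± 0.22 (standard error, n = 2 libraries each; limma adjusted p = 0.00228). CCK neurons, at 10243 and 10316 CPM, lay near the AVP neurons.

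miR-27b-3p, from a hairpin in an exon of 2010111I01Rik (chr13:63300712-63300784, plus strand), had 6606 and 5525 CPM in AVP neurons, against 87.5 and 146 CPM in VIP neurons. Its mean was 52.0-fold higher in AVP neurons (log2 difference 5.74 ± 0.38, limma adjusted p = 0.00499). This miRNA is best known for repressing targets in lipid metabolism and angiogenesis. miR-149-5p, from an intron of the glypican gene Gpc1 (chr1:92850378-92850443, plus strand), had 3472 and 4131 CPM in AVP neurons, against 231 and 101 CPM in VIP neurons. The groups were far apart and the difference was 4.64 ± 0.51 (limma adjusted p = 0.00523), while whole SCN tissue had 8040 and 6529 CPM.

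miR-370-3p, from an intron of the imprinted noncoding RNA gene Rian (chr12:109618258-109618336, plus strand), had 7701 and 9447 CPM in AVP neurons, against 560 and 246 CPM in VIP neurons. miR-298-5p, encoded beside the imprinted gene Gnas (chr2:174267504-174267585, minus strand), had 10458 and 8541 CPM in AVP neurons, against 845 and 355 CPM in VIP neurons. Both were more than 10-fold higher in AVP neurons, by 21.3-fold and 15.8-fold, with limma adjusted p of 0.0052 and 0.00674. miR-24-3p, which is cut from hairpins on chromosomes 8 and 13 and has cell-cycle genes among its known targets, had 1881 and 1892 CPM in AVP neurons, against 337 and 383 CPM in VIP neurons, and was 5.23-fold higher (limma adjusted p = 0.00531). The calls of miR-27b-3p, miR-149-5p, miR-370-3p, miR-298-5p and miR-24-3p were lost when either AVP library was left out, and held when either VIP library was left out, under the other scalings and with edgeR and DESeq2.

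Some miRNAs called higher had much lower levels. miR-101a-3p had 215 and 163 CPM in AVP neurons, against 0.3 and 0 CPM in VIP neurons. miR-485-3p had 125 and 474 CPM in AVP neurons, against 1.4 and 0.3 CPM in VIP neurons. miR-582-3p had 157 and 106 CPM in AVP neurons, against 0 and 2.1 CPM in VIP neurons. The VIP libraries were near their floor for all of these, so the size of the ratio is poorly fixed. The limma adjusted p was 0.0118 for miR-101a-3p, 0.0338 for miR-485-3p and 0.049 for miR-582-3p, and the call of miR-582-3p was lost under median-ratio scaling, with edgeR and with the replicate block.

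miR-204-5p had the smallest adjusted p among miRNAs lower in AVP neurons. It is cut from an intron of the cation channel gene Trpm3 (chr19:22750605-22750672, plus strand) and is known for high levels in retinal pigment epithelium and choroid plexus. Its level was 76.4 and 81.6 CPM in AVP neurons, against 9453 and 7563 CPM in VIP neurons. AVP neurons were 108-fold lower by the means, with a log2 difference of -6.74 ± 0.28 (limma adjusted p = 0.00228), and the call held under every alternative run. CCK neurons had 1255 and 1647 CPM, between the other kinds, and whole SCN tissue had 7045 and 7910 CPM. The passenger arm miR-204-3p was at 0 in both AVP libraries and at 119 and 71.1 CPM in the VIP libraries.

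Since miR-204 also marks choroid plexus, the other markers of that list were read beside it. miR-211-5p, the paralogue of miR-204, was at 0 in all AVP and VIP libraries. miR-34c-5p, known from ciliated cells, had 7.4 and 208 CPM in AVP neurons, against 0 and 0.7 CPM in VIP neurons. Of the 7 markers of the list found in the series, 5 and 5 were at 0 in the AVP libraries and 5 and 4 in the VIP libraries. The VIP libraries, where miR-204 was high, held no more than 1 CPM of its markers other than miR-204 itself.

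miR-128-3p and miR-124-3p, among the most abundant miRNAs of brain neurons, were chosen for description after their values were seen. miR-128-3p had 98.8 and 35.2 CPM in AVP neurons, against 3620 and 2369 CPM in VIP neurons, and was 44.7-fold lower in AVP neurons (log2 difference -5.63 ± 0.66, limma adjusted p = 0.00624). miR-124-3p had 3679 and 2378 CPM in AVP neurons, against 13877 and 10700 CPM in VIP neurons, and was 4.06-fold lower (limma adjusted p = 0.0129). Whole SCN tissue had more of both than either kind of neuron, at 7056 and 8861 CPM of miR-128-3p and 21515 and 24162 CPM of miR-124-3p. The seeds of miR-128-3p and miR-27b-3p, printed above, share the run CACAGU, shifted by 1 position, and these miRNAs were called in opposite directions.

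Other miRNAs lower in AVP neurons were abundant in VIP neurons. miR-342-3p, from an intron of the actin regulator gene Evl (chr12:108658620-108658718, plus strand), had 1116 and 780 CPM in AVP neurons, against 7262 and 7762 CPM in VIP neurons. Its other arm miR-342-5p was at 0 in both AVP libraries and at 188 and 101 CPM in the VIP libraries. Both arms were called (limma adjusted p = 0.00499 for each). miR-3099-3p, from an intron of the imprinted gene Usp29 (chr7:6803587-6803670, plus strand), had 183 and 214 CPM in AVP neurons, against 2069 and 2161 CPM in VIP neurons. It was 10.7-fold lower in AVP neurons, with a limma adjusted p of 0.00499.

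**Figure D2:**
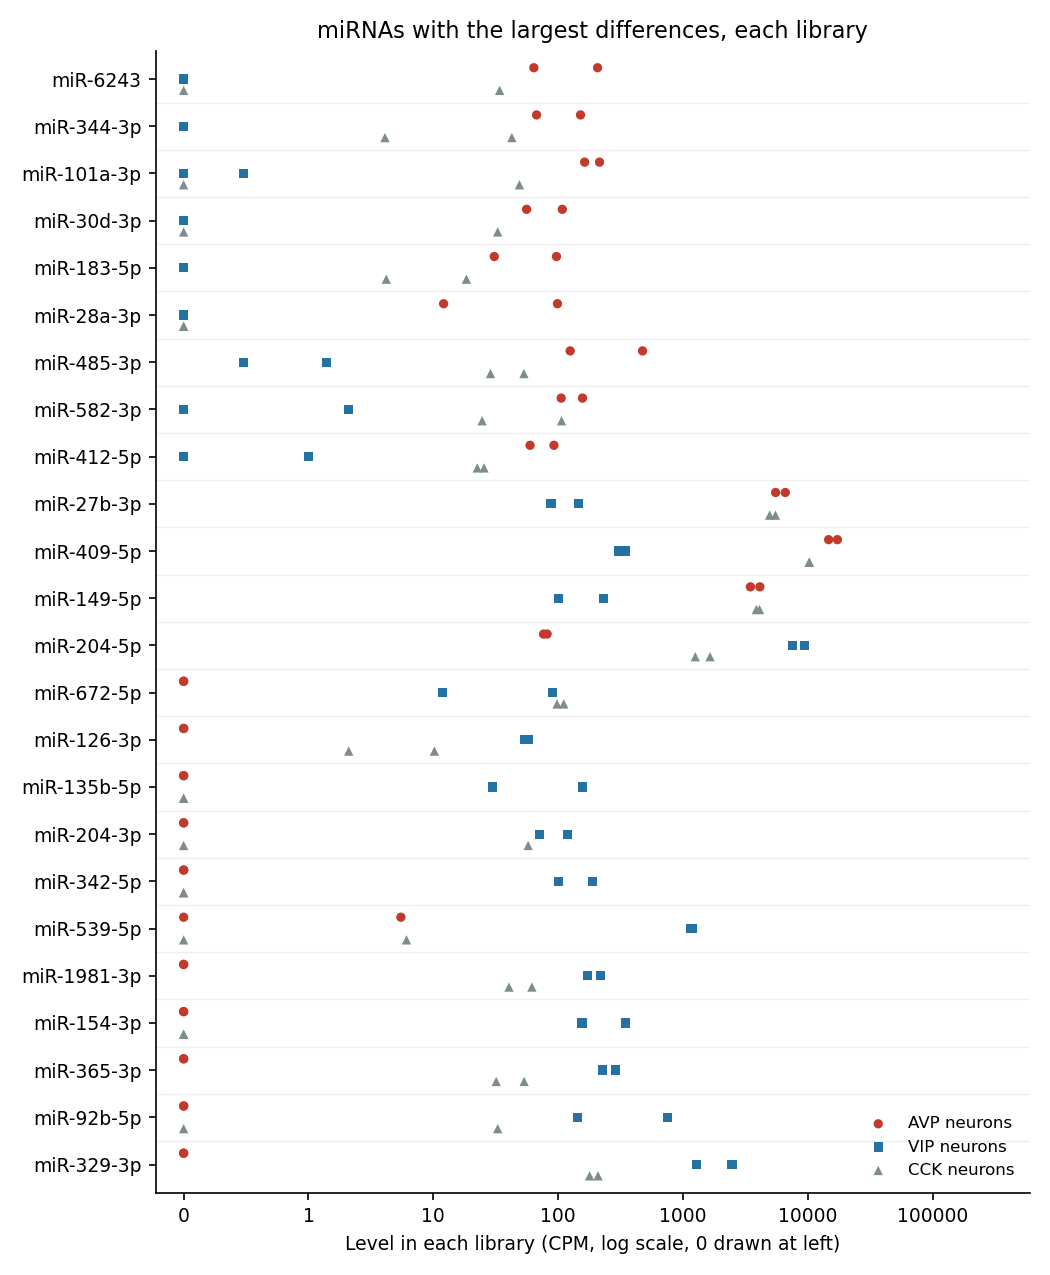
Level in each AVP, VIP and CCK library of the 24 called miRNAs with the largest log2 differences among those with a mean of at least 50 CPM, 12 higher (top) and 12 lower (bottom) in AVP neurons, in CPM on a log scale with 0 drawn at the left end; each symbol is 1 library. AVP and VIP symbols do not overlap in any row, and most rows have at least 1 kind of neuron at or near 0.

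The plot of the largest differences is dominated by miRNAs listed in both libraries of 1 group and in neither of the other. This was so for 13 miRNAs in AVP neurons and for 52 in VIP neurons, 11 and 23 of them among those tested, and all 34 tested ones were called. The deeper VIP libraries can list rarer miRNAs. After thinning to equal depth the counts were 18 and 39, and 14 and 23 among those tested. The 34 tested without thinning met the minimum through 1 group only and had no spread in the other group. Both favour a call in the main fit, so that all 34 were called is a description only. With edgeR all 11 calls higher in AVP neurons were lost, and most of the 23 lower calls. Those of miR-329-3p and miR-365-3p were among the lower calls that edgeR kept.

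The most abundant miRNAs listed in AVP and not in VIP neurons were miR-6243, at 207 and 63.9 CPM, and miR-344-3p, at 151 and 67.2 CPM. Against 3 reads over the VIP group, or 0.536 CPM, their means were at least 253-fold and at least 203-fold higher in AVP neurons. They were followed by miR-30d-3p at 55.9 and 108 CPM and by miR-183-5p, of the sensory-organ cluster of miR-183, miR-96 and miR-182, at 97.0 and 30.8 CPM. With edgeR the calls of miR-6243, miR-344-3p, miR-30d-3p and miR-183-5p were all lost (adjusted p = 0.0613, 0.0568, 0.0568 and 0.0657), while DESeq2 kept them. miR-6243 was also at 0 CPM in both libraries of whole SCN tissue. The imprinted miR-540-5p at 55.9 and 37.5 CPM and miR-431-3p at 27.9 and 24.2 CPM kept their calls when any single library was left out, but both were lost with edgeR (adjusted p = 0.0637 each) and miR-431-3p also with DESeq2 (adjusted p = 0.148).

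The most abundant miRNA listed in VIP and not in AVP neurons was miR-329-3p, at 0 CPM in both AVP libraries and 2468 and 1283 CPM in the VIP libraries. Against 3 reads over the AVP group, or 2.08 CPM, it was at least 902-fold lower in AVP neurons. miR-92b-5p had 0 CPM in both AVP libraries and 142 and 754 CPM in the VIP libraries, and was at least 215-fold lower in AVP neurons. miR-365-3p had 0 CPM in both AVP libraries and 289 and 227 CPM in the VIP libraries, and miR-154-3p had 0 CPM in both AVP libraries and 346 and 155 CPM in the VIP libraries, at least 124-fold and 121-fold lower in AVP neurons. Every one of these VIP values was far above 5.60 CPM, the level that 3 reads equal in the shallower AVP library.

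The miRNAs that dominated both profiles were not called. miR-125a-5p had 271349 and 230496 CPM in AVP neurons, against 279079 and 394599 CPM in VIP neurons, and miR-127-3p had 235822 and 244384 CPM in AVP neurons, against 231552 and 175581 CPM in VIP neurons. Neither passed the test (limma adjusted p = 0.377 and 0.519), with 95% confidence intervals of the log2 difference of -1.31 to 0.49 for miR-125a-5p and -0.54 to 1.05 for miR-127-3p. The 10 most abundant miRNAs of a library held 80.6% and 77.7% of its total in AVP neurons and 77.4% and 81.1% in VIP neurons.

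Below these, 4 abundant miRNAs were called higher in AVP neurons by smaller factors. miR-26a-5p had 109849 and 110335 CPM in AVP neurons, against 56121 and 35874 CPM in VIP neurons (2.39-fold, limma adjusted p = 0.04). miR-99b-5p had 46089 and 47358 CPM in AVP neurons, against 14288 and 20844 CPM in VIP neurons (2.66-fold, limma adjusted p = 0.0228). miR-191-5p had 29881 and 34449 CPM in AVP neurons, against 12039 and 15493 CPM in VIP neurons, and miR-212-5p had 15449 and 22583 CPM in AVP neurons, against 7318 and 7664 CPM in VIP neurons. All 4 calls were lost under median-ratio scaling and with edgeR, and those of miR-99b-5p, miR-191-5p and miR-212-5p also with DESeq2, which kept that of miR-26a-5p (adjusted p = 0.0433). miR-7a-5p, a miRNA known to be enriched in hypothalamic neurons, had 13983 and 19494 CPM in AVP neurons, against 9963 and 11911 CPM in VIP neurons, and did not pass the test (limma adjusted p = 0.157).

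The let-7 family, whose members accumulate as neurons mature and share 1 seed, was lower in AVP neurons as a sum. Its 11 members found in the series summed to 19187 and 31109 CPM in AVP neurons, against 99682 and 110003 CPM in VIP neurons, and to 109301 and 101891 CPM in CCK neurons. Of 10 members tested, 4 fell, none rose and 6 were not called, beside 17.8% lower and 18.2% higher over all tested miRNAs. The median log2 difference was -1.85, against 0.50 over all tested miRNAs. Under median-ratio scaling the medians were -2.51 and -0.14. The tested members included let-7d-3p, which lacks the shared seed. In the main fit the 9 tested members with that seed had a median log2 difference of -1.52.

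let-7e-5p had 1860 and 1875 CPM in AVP neurons, against 22380 and 27030 CPM in VIP neurons, a 13.2-fold lower mean (log2 difference -3.72 ± 0.20, limma adjusted p = 0.00415). let-7f-5p, the most abundant member, had 8376 and 11729 CPM in AVP neurons, against 51472 and 48685 CPM in VIP neurons. let-7a-5p had 1942 and 3269 CPM in AVP neurons, against 11396 and 16617 CPM in VIP neurons. The fourth called member, miR-98-5p, carries the let-7 seed under another name and had 89.5 and 28.6 CPM in AVP neurons, against 905 and 1257 CPM in VIP neurons. Not all members followed: let-7i-5p had 1750 and 1451 CPM in AVP neurons, against 921 and 993 CPM in VIP neurons, and let-7g-5p had 2071 and 5538 CPM in AVP neurons, against 2728 and 2030 CPM in VIP neurons, and neither passed the test. The 9 tested members with GAGGUAG at bases 2 to 8 thus had differences of both signs.

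Of 24 brain miRNAs known from neurons, 17 were tested, 8 fell, 2 rose and 7 were not called, with a median log2 difference of -1.25, beside 17.8% lower over all tested miRNAs. Of the 8, miR-137-3p, miR-138-5p, miR-138-2-3p and miR-135b-5p were at 0 in both AVP libraries and met the minimum through the VIP libraries only, where 24 of 25 miRNAs were called, so the count is a description only. Besides miR-124-3p and miR-128-3p, those that fell included miR-137-3p, a schizophrenia-linked regulator of synaptic genes, at 0 CPM in both AVP libraries and 57.6 and 38 CPM in the VIP libraries, and miR-138-5p, a regulator of dendritic spines, at 0 CPM in both AVP libraries and 79.3 and 19.7 CPM in the VIP libraries. The members that rose were miR-149-5p and miR-129-5p, the second at 1535 and 3190 CPM in AVP neurons, against 574 and 388 CPM in VIP neurons, a call lost under median-ratio scaling and with edgeR. The list summed to 11245 and 12365 CPM in AVP neurons, against 24363 and 16891 CPM in VIP neurons, and to 49846 and 52960 CPM in whole SCN tissue.

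Of miRNAs linked to the circadian clock in earlier work, 14 were tested, 3 rose, 4 fell and 7 were not called, with a median log2 difference of -0.45. Over all tested miRNAs 18.2% rose and 17.8% fell, so the list's counts, of few members, are no result about it. Those that rose were miR-27b-3p, miR-24-3p and miR-183-5p, the first reported to repress Bmal1 in liver. Those that fell were miR-132-3p, miR-29a-3p, miR-29b-3p and miR-181d-5p. miR-29a-3p, of a family with Per genes among its reported targets, had 1481 and 1752 CPM in AVP neurons, against 4852 and 4197 CPM in VIP neurons (limma adjusted p = 0.0126). miR-29b-3p shares its seed and was at 0 CPM in both AVP libraries and 28.4 and 63.2 CPM in the VIP libraries (limma adjusted p = 0.00499). The third member with that seed, miR-29c-3p, had 0 and 62.8 CPM in AVP neurons, against 265 and 230 CPM in VIP neurons, and was not called (limma adjusted p = 0.229).

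Of activity-regulated miRNAs, 3 of 10 tested members were higher, 2 lower and 5 not called, beside 18.2% higher and 17.8% lower over all tested miRNAs. miR-132-3p, a CREB-induced miRNA that light induces in the SCN, had 297 and 576 CPM in AVP neurons, against 2916 and 1942 CPM in VIP neurons, and was 5.57-fold lower (log2 difference -2.53 ± 0.46, limma adjusted p = 0.0221). Both VIP libraries were also above both CCK libraries, at 707 and 965 CPM. miR-212-5p, from the neighbouring hairpin, was higher in AVP neurons. miR-212-3p, which carries the same seed as miR-132-3p, had 106 and 159 CPM in AVP neurons, against 707 and 344 CPM in VIP neurons, and was not called (limma adjusted p = 0.0787). miR-138-5p was the other member called lower, and both arms of miR-485 were called higher. The call of miR-485-5p was lost under median-ratio scaling (adjusted p = 0.152), quantile normalization, edgeR (0.243) and DESeq2 (0.173).

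**Figure D3:**
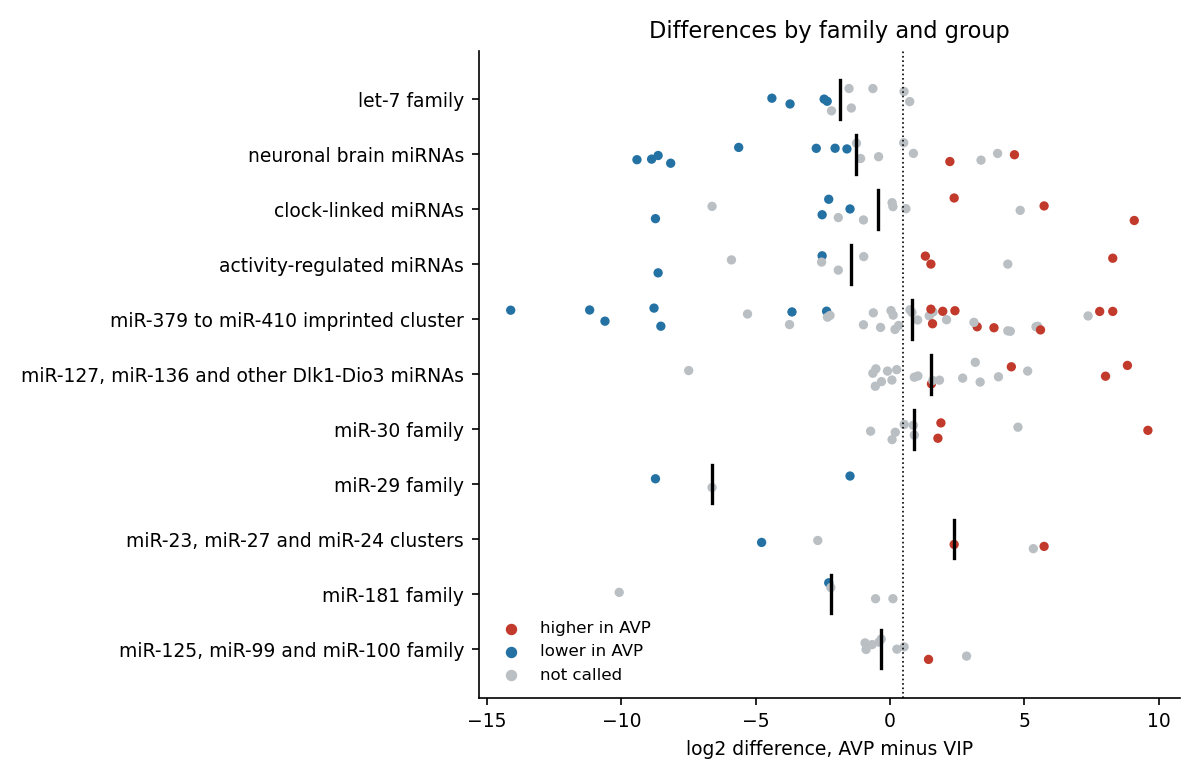
log2 difference, AVP minus VIP, of each tested miRNA by family or group, coloured by call, with a black bar at the median of each row and a dotted line at the median of all 247 tested miRNAs. The let-7, miR-29, miR-181, neuronal and activity-regulated rows have medians from -1.25 to -6.62. The clock-linked row and the row of miR-125, miR-99 and miR-100 have medians of -0.45 and -0.32. The rows of the imprinted Dlk1-Dio3 region hold most of their points above 0.

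The plot by family shows how far members of 1 family could differ. In the miR-30 family, 3 of 10 tested members rose and none fell, beside 18.2% higher and 17.8% lower over all tested miRNAs. miR-30e-5p had 5675 and 6388 CPM in AVP neurons, against 2252 and 1354 CPM in VIP neurons, and miR-30c-5p had 4920 and 8347 CPM in AVP neurons, against 2394 and 1235 CPM in VIP neurons. Both calls were lost with edgeR, and that of miR-30c-5p also under median-ratio scaling. miR-384-5p has the same seed as these, GUAAACA, and fell, with 515 and 527 CPM in AVP neurons, against 2064 and 1212 CPM in VIP neurons. Of 19 groups of 2 or more tested miRNAs with 1 seed, 53 miRNAs in all, this was the only one with calls in both directions, while 10 had calls in 1 direction. Only 3 groups had 2 or more calls and so could show both directions, and in 2 of these 3 all calls were in 1 direction.

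The miR-181 family had 1 lower call among 5 tested, beside 17.8% lower over all tested miRNAs. miR-181d-5p had 101 and 111 CPM in AVP neurons, against 619 and 427 CPM in VIP neurons (limma adjusted p = 0.0338). Its neighbour miR-181c-5p had 0 and 19.8 CPM in AVP neurons, against 2229 and 1049 CPM in VIP neurons. The AVP replicates of miR-181c-5p differed enough on the log scale that it was not called (limma adjusted p = 0.0637), although its log2 difference of -10.08 was the largest of any uncalled miRNA. miR-181a-5p, the most abundant member, had 1737 and 2079 CPM in AVP neurons, against 2199 and 1406 CPM in VIP neurons, and the groups overlapped.

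Groups of miRNAs tied to a host gene or an imprinted region came next. miR-1264, whose hairpin lies in Htr2c on chromosome X, an intron of this receptor gene for serotonin, was not listed in AVP neurons. Its 3p arm had 0 CPM in both AVP libraries and 39.5 and 39.8 CPM in the VIP libraries, with 141 and 154 CPM in CCK neurons, and both arms were called lower in AVP neurons. All 7 members of the Htr2c list found in the series were at 0 in both AVP libraries. The miR-344 family lies in the imprinted Prader-Willi region of chromosome 7. The 11 members on its list that were found in the series summed to 720 and 506 CPM in AVP neurons, against 0 and 4.3 CPM in VIP neurons. That list leaves out miR-344f-5p, which had 0 CPM in both AVP libraries and 61.2 and 29.8 CPM in the VIP libraries. miR-344f-5p was called lower, a call lost with edgeR. The most abundant member on the list, miR-344d-3p, had 500 and 386 CPM in AVP neurons, against 0 and 4.3 CPM in VIP neurons, and just missed the threshold (limma adjusted p = 0.0501). The Gnas-region miRNAs summed to 10781 and 8876 CPM in AVP neurons, against 915 and 380 CPM in VIP neurons, nearly all of it miR-298-5p.

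The imprinted Dlk1-Dio3 region on chromosome 12 holds the largest miRNA cluster of placental mammals and is expressed from the maternal chromosome. Of the miR-379 to miR-410 cluster, 39 members of the list were tested, 9 rose, 7 fell and 23 were not called, with a median log2 difference of 0.82, or 0.16 under median-ratio scaling. These shares are near the 18.2% higher and 17.8% lower over all tested miRNAs. Its sum was 40467 and 48495 CPM in AVP neurons, against 26521 and 17156 CPM in VIP neurons. The cluster thus held miR-409-5p, the most abundant of the strongly higher miRNAs, and miR-329-3p, the most abundant of those listed in VIP and not in AVP neurons, which CCK neurons also held at 209 and 179 CPM. miR-539-5p, also of this cluster, had 0 and 5.5 CPM in AVP neurons, against 1156 and 1183 CPM in VIP neurons, and both CCK libraries, at 0 and 6.1 CPM, were like the AVP libraries. Its limma adjusted p was 0.0382, and the call was lost with array weights, without the minimum level, and without AVP replicate 2 or either VIP replicate.

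Upstream in the same region, around miR-127 and miR-136, 4 of 21 tested miRNAs rose and none fell, with a median log2 difference of 1.55, or 0.88 under median-ratio scaling. The share that rose is near the 18.2% over all tested miRNAs. Those that rose were miR-370-3p, miR-540-5p, miR-431-3p and miR-433-3p, the last at 1328 and 1487 CPM in AVP neurons, against 444 and 522 CPM in VIP neurons. The call of miR-433-3p was lost under median-ratio scaling (adjusted p = 0.0874), with edgeR (0.179), with DESeq2 (0.154) and with the replicate block. The sum was 275610 and 285247 CPM in AVP neurons, against 265181 and 198238 CPM in VIP neurons, and was mostly miR-127-3p.

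Neighbouring miRNAs that are thought to share a primary transcript were called in opposite directions at 3 of 23 places where tested miRNAs of 2 or more hairpins lay within 10000 bases on 1 strand. At 12 places all calls were in 1 direction, and at 8 there was none. Some of these 12 held only 1 call, such as the place of miR-298-5p, and so could show only 1 direction. A miRNA with 2 copies, such as miR-24-3p, counted at both of its places. The first of the 3 places with opposite calls was the miR-379 to miR-410 cluster, where 29 hairpins with a position gave 8 higher and 6 lower calls. The second was the pair on chromosome 11, with miR-212 at chr11:75173388-75173478 and miR-132 at chr11:75173682-75173747. The third was the group of miR-99b, let-7e and miR-125a on chromosome 17, in the gene Spaca6, with let-7e at chr17:17830352-17830444 and miR-125a at chr17:17830812-17830879. There miR-99b-5p rose, let-7e-5p fell and miR-125a-5p was not called. The higher calls on chromosomes 11 and 17, miR-212-5p and miR-99b-5p, were lost under median-ratio scaling (adjusted p = 0.127 and 0.161), with edgeR (0.180 and 0.274) and with DESeq2 (0.0741 and 0.0802). Of these 3 places, that leaves opposite calls at the miR-379 to miR-410 cluster only.

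miR-23b belongs beside these, although its mature 3p arm had no position in the RefSeq table. Its hairpin lies at chr13:63300484-63300557, upstream of miR-27b and of miR-24-1 at chr13:63301208-63301275. miR-23b-3p had 93.2 and 35.2 CPM in AVP neurons, against 1697 and 1461 CPM in VIP neurons, and was 24.6-fold lower (log2 difference -4.78 ± 0.64, limma adjusted p = 0.00899). Its neighbours miR-27b-3p and miR-24-3p were higher in AVP neurons by 52.0-fold and 5.23-fold. In AVP neurons miR-27b-3p thus exceeded miR-23b-3p in reads in both libraries, and in VIP neurons the order was the reverse in both libraries. CCK neurons, at 119 and 71.8 CPM of miR-23b-3p and 4943 and 5505 CPM of miR-27b-3p, had the order of the AVP neurons. Reads of different mature sequences are captured with different efficiency, so the orders compare libraries and not amounts of the miRNAs. The opposite calls of miR-23b-3p and of miR-27b-3p and miR-24-3p held under median-ratio scaling, with edgeR and with DESeq2.

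**Figure D4:**
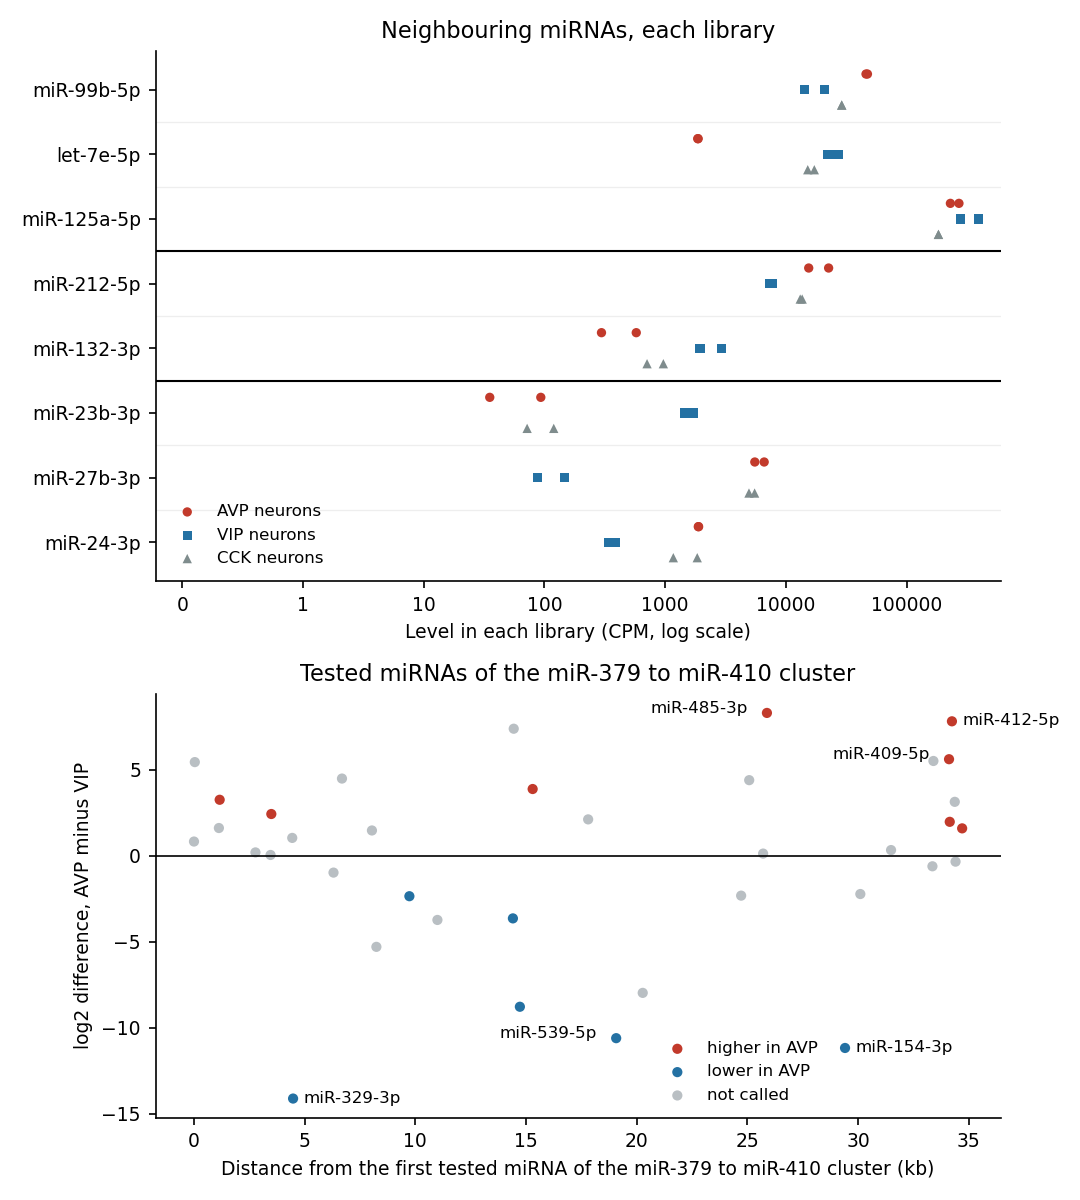
Top, level in each AVP, VIP and CCK library of neighbouring miRNAs at 3 places separated by black lines, in CPM on a log scale; bottom, log2 difference, AVP minus VIP, of the tested miRNAs of the miR-379 to miR-410 cluster against distance along it in kb. At each place at least 1 miRNA had both AVP libraries above both VIP libraries and another had them below, and higher and lower calls are interspersed along the cluster.

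The plot of neighbours shows miR-329-3p near the start of the cluster, miR-539-5p and miR-154-3p further along it, and miR-409-5p and miR-412-5p close to its end. The higher calls miR-411-3p and miR-323-3p lie before the first lower call, and the higher calls miR-300-3p and miR-485-3p lie between lower calls.

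Arms of the same hairpin also differed. Both arms were tested for 48 hairpins, and their differences had the same sign for 28 and opposite signs for 20. At least 1 arm was called for 25 hairpins and both for 7, in the same direction for 5 and in opposite directions for miR-1981 and miR-344f. With edgeR the calls of miR-1981-5p, miR-344f-5p and miR-344f-3p were lost (adjusted p = 0.0637, 0.0637 and 0.0783), which left no hairpin with opposite calls. The call of miR-344f-3p was also lost with DESeq2 (adjusted p = 0.0581). The share of the 3p arm did not overlap between groups for 18 hairpins with the higher share in AVP neurons and for 14 with the lower.

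The arm that held most reads differed between both AVP and both VIP libraries for 8 hairpins. miR-1981, from an intron of Marc2 (chr1:184822407-184822488, minus strand), had all of its 33 and 32 reads on the 5p arm in AVP neurons and all of its 615 and 476 reads on the 3p arm in VIP neurons. CCK neurons had both arms, with 61.3% and 63.8% of reads on the 3p arm. miR-344f had all of its 37 and 12 reads on the 3p arm in AVP neurons and all of its 172 and 83 reads on the 5p arm in VIP neurons. Read numbers in AVP neurons were small for both hairpins.

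miR-409 gave such a contrast from many more reads. Its 3p arm held 17.9% and 19.4% of the hairpin's reads in AVP neurons, against 80.3% and 66.7% in VIP neurons. The 5p arm had 7873 and 15660 reads in AVP neurons, against 865 and 967 reads in VIP neurons, and the 3p arm had 1711 and 3771 reads in AVP neurons, against 3517 and 1934 reads in VIP neurons. Both arms were called higher in AVP neurons, the 5p arm by a log2 difference of 5.61 and the 3p arm by 1.97. For miR-9, a neurogenic miRNA, the 3p share was 32.4% and 25.1% in AVP neurons, against 97.7% and 82.1% in VIP neurons, and neither arm was called. CCK neurons, with 3p shares of 13.5% and 9.42% for miR-409 and 15.6% and 24.6% for miR-9, were on the side of the AVP neurons.

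**Figure D5:**
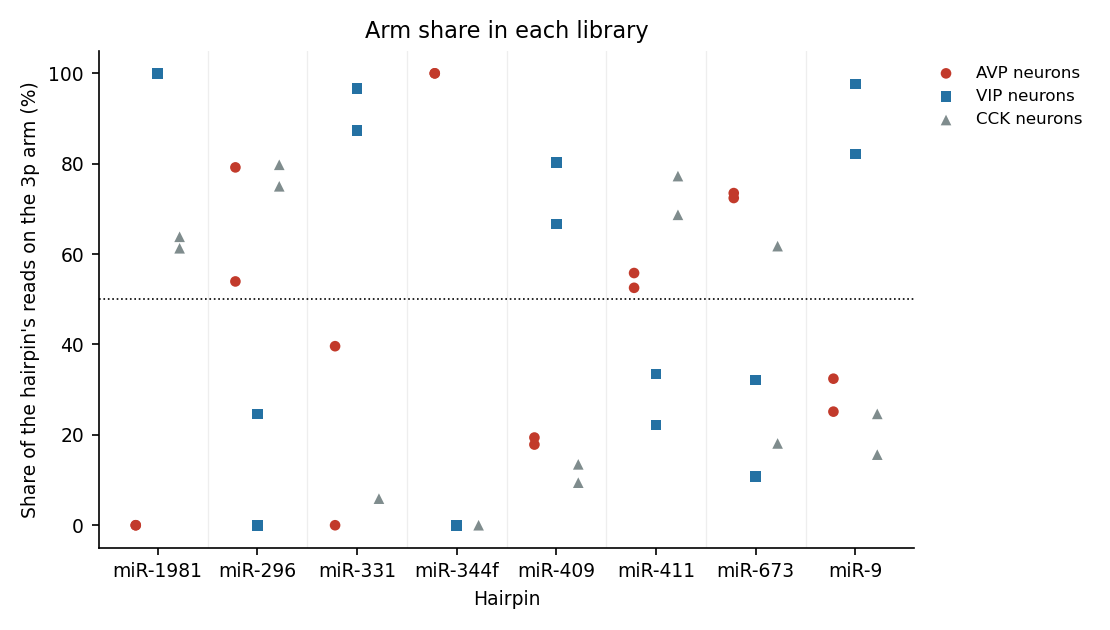
Share of each hairpin's reads that lay on the 3p arm, in percent, in each AVP, VIP and CCK library, for the 8 hairpins whose majority arm differed between both AVP and both VIP libraries; the dotted line marks 50%, and a CCK library with no reads of a hairpin has no symbol. For miR-1981 and miR-344f the shares were 0% or 100% in every AVP and VIP library, and for miR-409 and miR-9 the CCK libraries lay below 50% with the AVP libraries.

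The plot of arm shares also holds miR-296, miR-331, miR-411 and miR-673. Their 3p shares were higher in AVP neurons for miR-296, miR-411 and miR-673, and lower for miR-331. miR-411 had 52.5% and 55.8% in AVP neurons, against 33.5% and 22.2% in VIP neurons, so its AVP libraries lay close to an even split.

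RefSeq held a mature sequence for 217 of the 247 tested miRNAs. The median GC content was 50% for the 39 matched miRNAs called higher in AVP neurons, 42.2% for the 38 called lower and 47.6% for all 217. The median length was 22 bases in each of these sets. A first base of U was found in 46.2% of those called higher, 44.7% of those called lower and 47% of all.

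Markers of other cells were read beside whole SCN tissue. The 8 vascular miRNAs summed to 70.8 and 3.3 CPM in AVP neurons, against 83.4 and 63.0 CPM in VIP neurons, and to 4057 and 4046 CPM in whole SCN tissue. One of them was tested: miR-126-3p, of endothelium, had 0 CPM in both AVP libraries and 57.6 and 54.2 CPM in the VIP libraries and was called lower. That call was lost with edgeR (adjusted p = 0.0584). The other arm, miR-126-5p, was not tested and went the other way in 1 library. It had 38 and 0 reads in the AVP libraries, against 0 reads in both VIP libraries. The oligodendrocyte miRNAs summed to 134 and 45.1 CPM in AVP neurons, against 1249 and 756 CPM in VIP neurons and 1005 and 1551 CPM in whole SCN tissue, so the VIP libraries were near the tissue level. Of these miRNAs, 4 and 3 of the 5 found were at 0 in the AVP libraries and 3 and 3 in the VIP libraries. miR-338-3p, one of the 2 tested, had 134 and 20.9 CPM in AVP neurons, against 595 and 242 CPM in VIP neurons, and neither was called. The part of such cells in the differences was not tested.

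The red-cell list gave opposite calls. miR-451a had 0 CPM in both AVP libraries and 16.7 and 12.5 CPM in the VIP libraries and was called lower, a call lost with edgeR and DESeq2. miR-486-5p had 2164 and 2107 CPM in AVP neurons, against 1153 and 930 CPM in VIP neurons and 544 and 454 CPM in whole SCN tissue, and was called higher. That call was lost under median-ratio scaling, with quantile normalization, with edgeR (adjusted p = 0.387) and with DESeq2 (0.466). miR-144-3p, of the same red-cell transcript as miR-451a, had 0 CPM in both AVP libraries and 0.3 CPM in both VIP libraries. The microglia and leukocyte list summed to 1257 and 1249 CPM in AVP neurons, against 7450 and 7950 CPM in VIP neurons and 7624 and 7701 CPM in whole SCN tissue. In the neurons most of it was miR-342-3p. The list's other members included miR-150-5p, at 0 CPM in both AVP libraries and 1.0 and 0.7 CPM in the VIP libraries, and miR-155-5p, at 0 in all 4. Of the 3 tested members, miR-342-3p was lower and 2 were not called. Of these, miR-21a-5p went the other way, with both AVP libraries above both VIP libraries (log2 difference 2.365). miR-146a-5p had a log2 difference of -5.90.

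For 65 of the 89 called miRNAs the CCK mean lay between the AVP and VIP means, for 12 above both and for 12 below both. The 89 were called because AVP and VIP libraries lay apart, which by itself favours a middle place for other neurons. This count is thus a description only. On the log2 scale both CCK libraries were nearer the AVP mean for 49 of the 89 and nearer the VIP mean for 26. The CCK libraries, with 469808 and 487360 reads, were also nearer the AVP libraries in depth. The part of depth in this nearness was not tested. Across the 247 miRNAs, Pearson r was 0.653 to 0.742 between an AVP and a CCK library and 0.622 to 0.703 between a VIP and a CCK library. These ranges overlapped. The let-7 family was an exception to the nearness to AVP neurons, since its CCK sums were at the level of the VIP neurons.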

How the data were processed

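Small RNAs of total RNA were sequenced. The authors deposited, for each library, a list of miRNA names with a signal scaled to 10000000 per library, and the submitters' processing notes name Bowtie and the builds GRCm38 and mm10; how they were used is not given in the sources used here. A miRNA absent from a list was taken as 0. Every deposited value of the 8 libraries used (AVP, VIP, CCK and SCN tissue) was a whole number of reads times the library's scale, rounded down, so reads were recovered for depth, edgeR and DESeq2. The deposited totals exceed that scale by 9306 to 21510 in the AVP and VIP libraries, close to the value of miR-3107-5p, which nearly repeats that of miR-486-5p, so this pair is 1 signal counted among the calls as 2.

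The main test was limma 3.58.1 with a mean-variance trend on log2(value + 1) over the 4 AVP and VIP libraries, in R 4.3.3, with Benjamini-Hochberg adjustment over 247 miRNAs; alternatives included edgeR 4.0.16 and DESeq2 1.42.0. The residual degrees of freedom were 2. The fit was tested on simulated data. Lists of miRNAs came from general knowledge of families, clusters and cell types. The members, the lists and the rule for naming miRNAs were chosen with earlier results of these data known. The rule took the 12 largest called differences in each direction with a mean of at least 50 CPM, the 10 most abundant of each group, up to 4 members of each list by p, other arms and seed relatives, and the 5 most abundant of each group listed in 1 group only. Members that complete a family, cluster or hairpin were added after their values were seen. The replicate numbers of the labels mark no shared animal or day, and deviations of same-numbered libraries correlated at -0.112, so the main fit has no block. Sequences and positions are RefSeq's for GRCm38, and host genes are GENCODE's for the same build. Floors cover counting error only, and the intervals of log2 differences are limma's, from the spread between libraries.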

Additional observations from a re-analysis of the deposited data

How the results depend on the processing

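The number called was 89 in the main fit, 48 with edgeR on recovered reads, and 13 to 42 when 1 library was left out. The number higher in AVP neurons was 45, against 27 under median-ratio scaling, 29 without the minimum level (67 called of 392 tested), 9 with edgeR, and 12 to 16 when 1 library was left out. The number lower was 44, and 1 to 27 when 1 library was left out. The scaling, the filter or the test is what differs by construction in each case, and leaving out a library leaves 1 sample in a group; the cause of each shift was not tested beyond that. All other alternatives called 70 to 110. Among miRNAs named in the report that were not called, signs reversed as follows. Under median-ratio scaling the log2 difference was -0.0651 for miR-7a-5p, -0.14 for let-7g-5p, -0.41 for miR-127-3p and -0.55 for miR-181a-5p. With edgeR it was -0.0267 for let-7i-5p, -0.18 for miR-7a-5p, -0.10 for let-7g-5p, -0.51 for miR-127-3p and -0.65 for miR-181a-5p. With DESeq2 it was -0.0769 for miR-7a-5p, -0.41 for miR-127-3p and -0.56 for miR-181a-5p. For miR-181a-5p it was -0.11 with quantile normalization and -0.21 to 0.43 when 1 library was left out, lowest without VIP replicate 2 and also below 0 without AVP replicate 2. For let-7g-5p it was -0.18 to 1.24 when 1 library was left out, lowest without AVP replicate 2. With the replicate number as a block 72 were called, 31 higher and 41 lower, 70 of them shared with the main fit; the numbers do not pair the libraries by the labels. Same-numbered deviations correlated at -0.112, and the crossed pairing, chosen after seeing the data, called 85. A common floor of 3 reads and leaving out miRNAs at 0 in both libraries of a group, also chosen after seeing the data, called 100 and 75. With 2 libraries a group and 537185 to 2812318 reads, depth limits miRNAs near 5.60 CPM.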

Other observations

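The remaining families had few tested members, and 36% of all tested miRNAs were called. Of the miR-26 family, 2 of 3 tested members were higher in AVP neurons, and of the miR-125, miR-99 and miR-100 family 1 of 9, which was miR-99b-5p. Of miR-103, miR-107, miR-221 and miR-222, 1 of 5 tested members was higher and none was lower. The miR-17 to miR-92a clusters and their paralogues had 4 tested members, the miR-15 and miR-16 family 1, and the hypothalamic and endocrine list 3, none of them called. The miR-183 cluster had 1 tested member, miR-183-5p, which was higher. No member of the miR-34 and miR-449 family was tested.

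A list of miRNAs higher in SCN tissue than in other regions was chosen on libraries of the same series, so it is not independent evidence. Of its 5 tested members, miR-149-5p was higher in AVP neurons, miR-3099-3p and miR-204-5p were lower, and 2 were not called. The list summed to 3761 and 4806 CPM in AVP neurons, against 12018 and 9967 CPM in VIP neurons, and to 21172 and 20259 CPM in whole SCN tissue. Muscle miRNAs summed to 0 CPM in both AVP libraries and to 0.3 and 29.4 CPM in the VIP libraries. Liver and gut miRNAs summed to 196 and 449 CPM in AVP neurons, against 200 and 228 CPM in VIP neurons, with 1 tested member, which was not called.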
